A study of Bos taurus with 96 samples.

Results

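The genes followed here across cattle fat and muscle belong to the immediate early response, namely FOS, FOSB, JUN, JUNB, EGR1, ATF3 and the nuclear receptors NR4A1, NR4A2 and NR4A3. They were found by the RefSeq accession of each probe or by the gene name that the study's probe tables give it. All 9 genes were present, with 22 of the 34227 probes tested, among 10653 named genes. The probe with the highest mean over all arrays stands for a gene, and it is the one meant below unless other probes are named. The EGR1 probe used and both NR4A3 probes are named by the study's tables alone.

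Immediate early genes are transcribed within minutes of a stimulus from factors that a cell already holds, and their mRNAs are short-lived. FOS, FOSB, JUN and JUNB encode subunits of the AP-1 transcription factor, EGR1 encodes a zinc finger factor induced by growth factors, and ATF3 encodes a stress-induced factor of the ATF/CREB family. NR4A1, NR4A2 and NR4A3 encode nuclear receptors that act without a known physiological ligand and are controlled mainly by their abundance. In fat and skeletal muscle they are known targets of adrenergic and cyclic AMP signals.

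Total RNA from 96 samples of Bos taurus steers was read on one colour Agilent bovine arrays with 4 arrays on a slide. The fat depots were subcutaneous over the rump (SC), intramuscular (IMF), intermuscular (Inter), perirenal or kidney (Kid) and omental (Omen), with 12 arrays each from animals labelled pasture, 4 each of Angus, Hereford and Wagyu x Angus. Longissimus dorsi muscle (LD) had 24 arrays from animals on pasture, 8 of each breed, and 12 from animals with supplementary feeding, 4 of each breed. By the study's methods pasture or supplement was the feed after weaning, and the fat depots came from steers of 26 months after 259 days on grain, whereas the age tag reads 259 days. Some LD samples came from an earlier kill. Tissues were taken after slaughter in an abattoir and snap frozen, so all groups share that handling. The labels give neither the minutes from slaughter to freezing nor the animal behind a sample, so order of dissection and depot cannot be told apart. By the study's methods the depots were dissected from the same carcasses, so arrays of different depots share steers, which the unpaired fits leave out. P-values measure the spread between these samples.

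A level is a log2 signal from which the 75th percentile of its array was subtracted, so that 0 is as bright as that percentile and 1 unit is a doubling. Levels of different genes come from different probes and are not set against each other. The 75th percentile itself was lower in SC (median 9.05 on the log2 scale) than in the other fat depots (medians 9.83 to 10.2), and 76.9% of probes were well above background on the median SC array, against 82.8 to 83.8% in the other fat depots. Adipocyte markers summed to 620 to 979 times the 75th percentile in SC and 160 to 618 times in IMF. Muscle RNA was present in IMF, where the summed level of 13 myofibre markers was 1070 to 3250 times the 75th percentile, against 2.08 to 3.54 times in SC and 4400 to 6190 times in LD on pasture. Of the arrays, 11 stood apart by a marker list, meaning a summed level over 5 times the median of their group. These were 2 Inter and 2 Kid arrays by myofibre markers, 1 Kid array by macrophage markers, 1 SC array by smooth muscle markers and 5 Omen arrays by mesothelium markers.

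SC was the depot with the lowest NR4A1, NR4A2, NR4A3 and ATF3. Each of them was higher in every other fat depot and in LD on pasture than in SC, by 1.60-fold for NR4A2 in Kid up to 7.94-fold for ATF3 in Omen, and by more for NR4A3, whose fold is inexact because few SC arrays read it above background. With scan day in the fit the NR4A2 calls in Inter and Kid were lost, and in Kid neither of the other NR4A2 probes passed (0.46 and 0.53). FOS, FOSB and JUN went the other way in IMF and Kid, where they were lower than in SC. The 5 comparisons share the 12 SC arrays, so they are given side by side and not as independent evidence. Their limma adjusted p-values come from fits over all 34227 probes.

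NR4A1 lay between 1.41 and 3.97 on the 12 SC arrays, with a median of 1.88. It lay between 4.32 and 5.12 in IMF (median 4.59), between 3.73 and 4.8 in Inter (median 4.27) and between 2.62 and 4.77 in Kid (median 4.22). It lay between 3.25 and 6.05 in Omen (median 5.17) and between 3.84 and 6.34 in LD on pasture (median 4.62). Every IMF array was above every SC array, and 23 of 24 LD arrays were. The differences from SC were 2.31 ± 0.24 (SE) for IMF, 1.90 ± 0.25 for Inter, 1.78 ± 0.28 for Kid, 2.76 ± 0.32 for Omen and 2.48 ± 0.24 for LD on the log2 scale, with adjusted p of 2.09e-05 in Kid and lower in the others. The other NR4A1 probes gave 3.5 and 3.80 in IMF and 3.89 and 3.92 in Omen.

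NR4A3 had a dim probe in SC. Its level was -7.68 to -4.34 on the SC arrays with a median of -6.41, and only 4 of the 12 were well above background there, so that the size of its differences from SC is inexact. It was -3.68 to -2.26 in IMF (median -2.68), -4.27 to -1.5 in Inter (median -3.10), -4.97 to -1.95 in Kid (median -2.92), -3.5 to -0.92 in Omen (median -1.86) and -5.53 to -2.02 in LD on pasture (median -3.5). IMF, Inter and Omen did not overlap with SC, and 11 of 12 Kid arrays were above all SC arrays. The differences from SC were 3.49 ± 0.30, 3.44 ± 0.34, 3.18 ± 0.35, 4.35 ± 0.35 and 2.76 ± 0.31 in IMF, Inter, Kid, Omen and LD (highest adjusted p 2.09e-07). The second NR4A3 probe, well above background on 7 of 12 SC arrays, gave 3.56 in IMF and 3.12 in Omen. The study lists NR4A1 and NR4A3 among genes higher in IMF than in SC on these samples, so their direction there is not independent evidence.

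ATF3 ranged from -0.53 to 2.86 in SC (median 0.92) and from 2.80 to 4.83 in IMF (median 3.55), where 11 of 12 arrays exceeded every SC array. Its medians were 3.08 in Inter, 2.56 in Kid, 3.99 in Omen and 2.90 in LD on pasture. The difference from SC was 2.67 ± 0.32 for IMF, 2.22 ± 0.34 for Inter, 1.97 ± 0.38 for Kid, 2.99 ± 0.42 for Omen and 2.53 ± 0.43 in LD, with a highest adjusted p of 2.20e-04 in Kid. NR4A2 ranged from -1.18 to 1.01 in SC (median -0.49) and from 0.53 to 2.60 in IMF (median 1.71). Its difference from SC was largest in IMF at 1.97 ± 0.25 and in Omen at 1.84 ± 0.27, and smallest in Kid at 0.68 ± 0.25 (adjusted p 0.0297), where 11 of 12 arrays overlapped the SC range. The SC array on slide 19, which was read on the same slide as Kid and Omen arrays and had a 75th percentile of 10.04, had 0.26 for ATF3, 1.65 for NR4A1, -0.38 for NR4A2 and -6.60 for NR4A3.

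**Figure D1:**
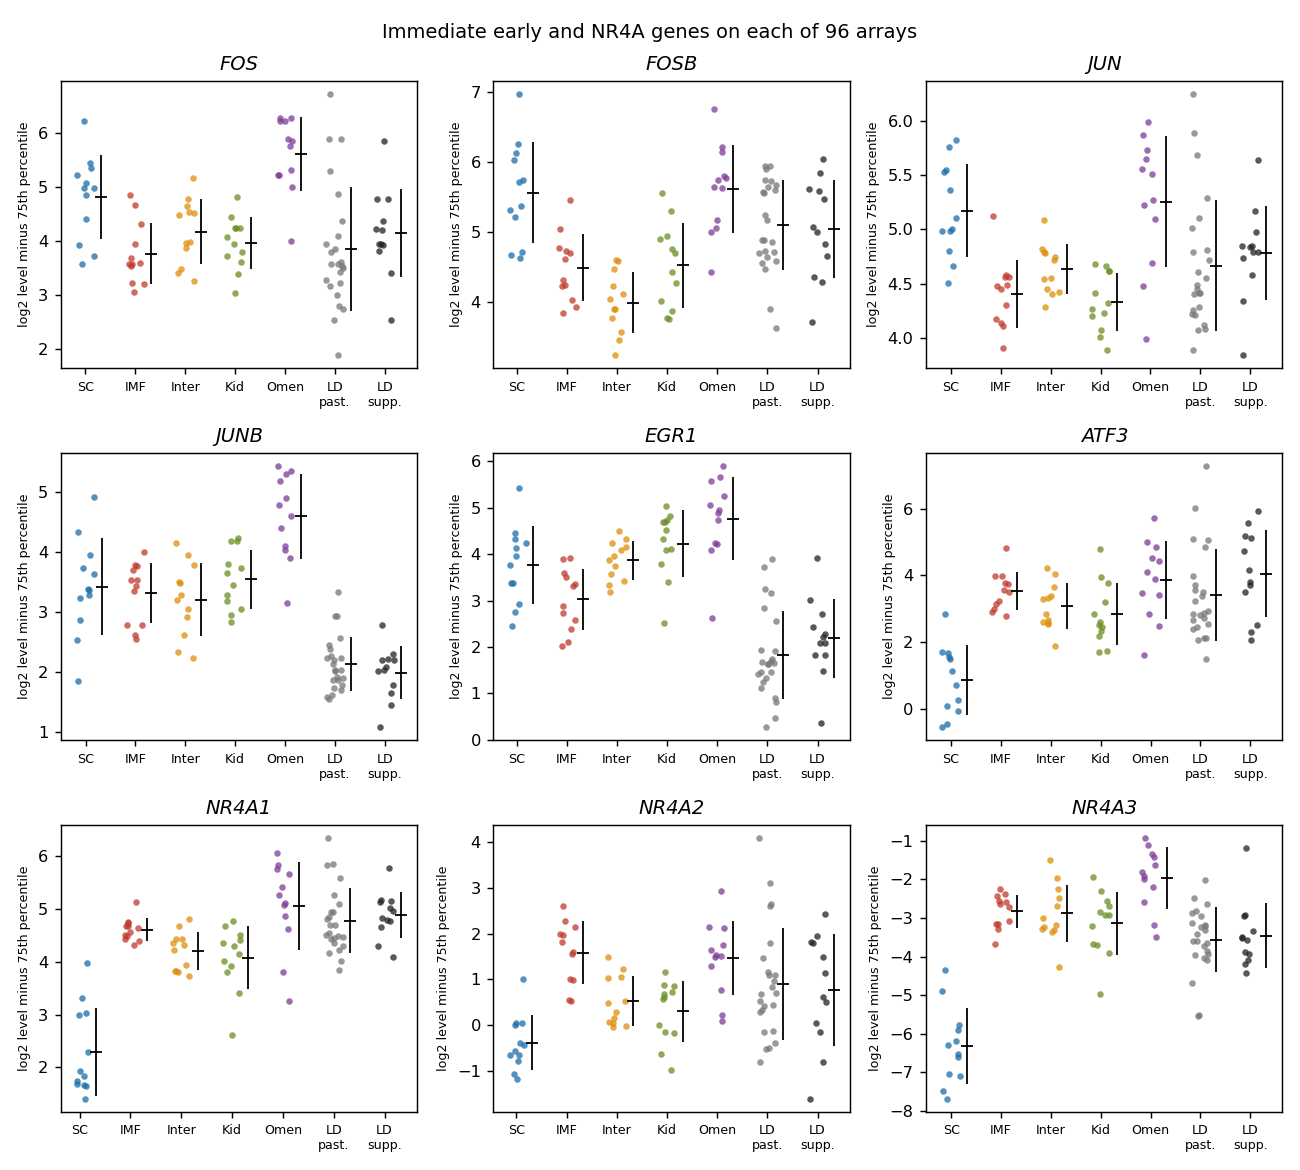
Log2 level of the 9 genes on each of the 96 arrays (y axis, minus the 75th percentile of the array), by group (x axis). Points are arrays and the bar beside them is the mean ± SD of 12 arrays, or 24 for LD on pasture. NR4A1 lay between 4.32 and 5.12 in IMF, above every SC array.

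The AP-1 subunits and EGR1 were ordered differently. FOS lay between 3.58 and 6.23 in SC (median 4.99), between 3.06 and 4.85 in IMF (median 3.59), between 3.27 and 5.17 in Inter (median 4.23) and between 3.04 and 4.81 in Kid (median 4.01). It lay between 4.01 and 6.28 in Omen (median 5.80) and between 1.89 and 6.72 in LD on pasture (median 3.57). The ranges of all groups overlapped with SC. FOS was lower than in SC by 1.05 ± 0.27 in IMF (adjusted p 1.44e-03), by 0.85 ± 0.25 in Kid (9.41e-03) and by 0.96 ± 0.36 in LD (0.0139), and was higher in Omen by 0.79 ± 0.28 (0.0256). The Inter difference of -0.64 ± 0.27 did not pass (0.0555), though FOS was called lower in Inter with breed in the fit. The FOS call in Kid was lost with scan day in the fit, those of FOS and JUN in LD with slide as a random block, and that of FOS in Omen with slide as a random block or the replicate number. The replicate number equals the position of an array on its slide and was fitted together with breed.

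FOSB was lower than in SC in Inter by 1.57 ± 0.23 (adjusted p 7.61e-06), and all 12 Inter arrays were below all SC arrays. It was lower by 1.07 ± 0.24 in IMF and by 1.04 ± 0.26 in Kid, while Omen differed by 0.05 ± 0.26 and LD by -0.46 ± 0.23 (0.0597), neither past the threshold. The other FOSB probes gave -4.62 (past the threshold) and 0.20 in LD and 1.33 and -0.21 in Omen, and FOSB was called lower in LD with all 36 LD arrays, centring on the mean, quantile normalization, the replicate number and the authors' unscaled values. JUN was lower by 0.77 ± 0.15 in IMF, by 0.54 ± 0.14 in Inter, by 0.84 ± 0.14 in Kid and by 0.51 ± 0.19 in LD, and differed by 0.08 ± 0.20 in Omen. JUNB was near SC in IMF, Inter and Kid (-0.10 ± 0.26, -0.22 ± 0.28 and 0.12 ± 0.26), higher in Omen by 1.17 ± 0.29 and lower in LD by 1.29 ± 0.20. EGR1 was lower in IMF by 0.74 ± 0.29, lower in LD by 1.94 ± 0.31 and higher in Omen by 1.0 ± 0.34. The EGR1 probes disagreed, since the others gave -0.68 and -0.28 in IMF, -1.13 and 0.09 in LD, and -0.85 (past the threshold) and -0.42 in Inter, where the probe used gave 0.10. In Omen they gave 0.63 and 0.54, neither past the threshold, and the call of the probe used was lost with the replicate number in the fit. The EGR1 call in IMF was lost with that number, with slide as a random block and with normexp background correction.

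In all, 4 genes were higher and 4 lower in IMF than in SC, where 31.1% and 33% of all probes were. In Inter 4 were higher and 2 lower (21.5% and 27.3% of probes), and in Kid 4 were higher and 3 lower (19.3% and 22.4%). In Omen 7 were higher and none lower (20.5% and 25.3%). In LD on pasture 4 were higher and 4 lower (42.6% and 40.3%). Between the 5 depots together all 9 differed, where 87.2% of probes did, a share near the background. With scan day in the fit, the IMF minus SC calls of FOS, FOSB, JUN and EGR1 were lost and those of ATF3 and the NR4A genes were not. The same fit lost JUN in Inter and in LD. Myofibre markers were higher in IMF than in SC in 13 of 13 cases, and the part of muscle RNA in the IMF values was not tested.

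**Figure D2:**
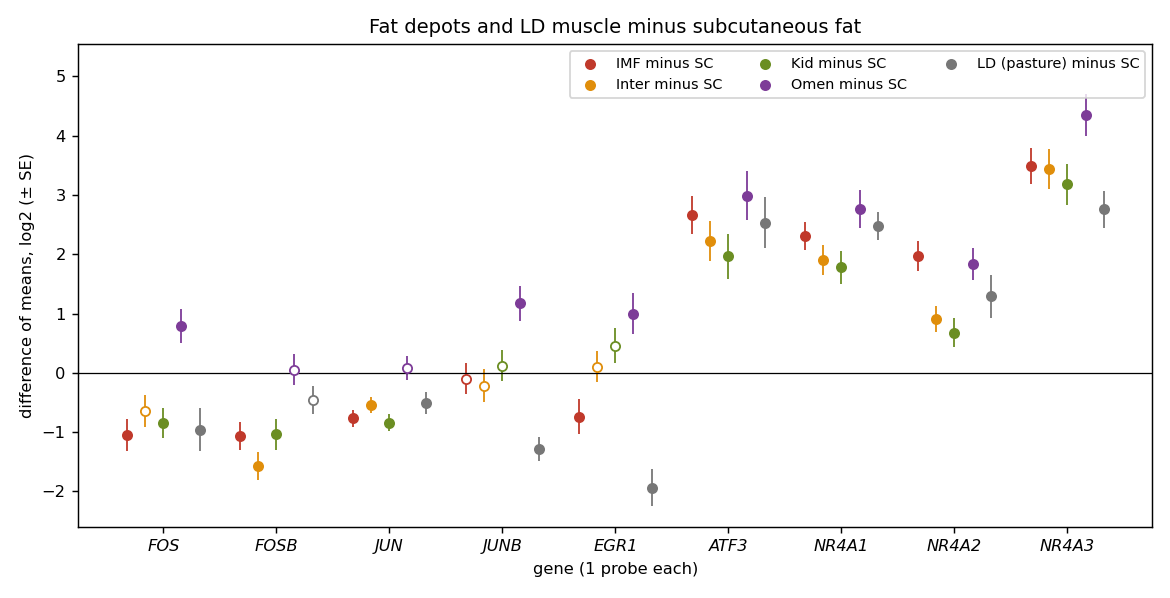
Difference of the means from SC for each gene (x axis), in log2 units with the standard error (y axis), for IMF, Inter, Kid, Omen and LD on pasture. Filled points passed an adjusted p of 0.05 and open points did not. ATF3, NR4A1, NR4A2 and NR4A3 lie above 0 in all 5 comparisons, while FOS, FOSB and JUN lie below 0 in IMF, Inter and Kid.

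Within Angus, Hereford and Wagyu x Angus alone, all called differences from SC kept their sign in IMF (8 of 8), Inter (6 of 6), Kid (7 of 7), Omen (7 of 7) and LD (8 of 8). Between Omen and Inter 7 of 8 did so. Each breed is a part of the arrays that gave the calls, so these signs are a description and not independent evidence. On the scan day that holds most SC arrays, 5 Kid arrays exceeded 11 SC arrays by 1.74 for NR4A1, 2.93 for NR4A3 and 1.89 for ATF3, and were lower by 0.77 for FOS. On slide 17, 1 Kid array exceeded 3 SC arrays by 1.92 for NR4A1 and by 3.64 for NR4A3. All 12 IMF arrays and 1 SC array shared a scan day, on which IMF exceeded SC by 2.96 for NR4A1 and was lower by 0.64 for FOS. Inter and SC shared no scan day and no slide.

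Omen had the highest mean of 8 of the 9 genes among the fat depots, though not past the threshold against the depot next to it for FOSB and JUN (SC), EGR1 (Kid), ATF3 and NR4A1 (IMF), NR4A2 being highest in IMF (mean 1.59 ± 0.68 SD against 1.46 ± 0.80 in Omen). Against Inter, 8 genes were higher (7.69% of probes were), against Kid 7 were higher (5.8%) and against IMF 6 were higher (28.5%). With slide as a random block, scan day or the replicate number in the fit, FOS, FOSB and JUNB kept their calls against Inter and JUN, EGR1, NR4A1, NR4A2 and NR4A3 lost them. Against Kid, FOS, FOSB, JUN, JUNB and NR4A2 kept theirs in all 3 fits, while NR4A1 and NR4A3 each lost theirs in 2. NR4A3 exceeded IMF by 0.86 ± 0.25, but its other probe gave -0.43 (adjusted p 0.0549) and the call was lost with the replicate number in the fit. FOS exceeded Inter by 1.43 ± 0.25, Kid by 1.64 ± 0.23 and IMF by 1.84 ± 0.25, with 11 of 12 Omen arrays above all Kid arrays. FOSB exceeded them by 1.62 ± 0.21, 1.09 ± 0.24 and 1.12 ± 0.22, and JUNB by 1.38 ± 0.26, 1.05 ± 0.24 and 1.27 ± 0.24. NR4A1 exceeded Inter by 0.86 ± 0.25 and Kid by 0.98 ± 0.28, and its difference from IMF was 0.45 ± 0.24 (adjusted p 0.112). ATF3 passed in none of the 3 comparisons, with differences of 0.77 ± 0.37, 1.01 ± 0.41 and 0.32 ± 0.35.

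**Figure D3:**
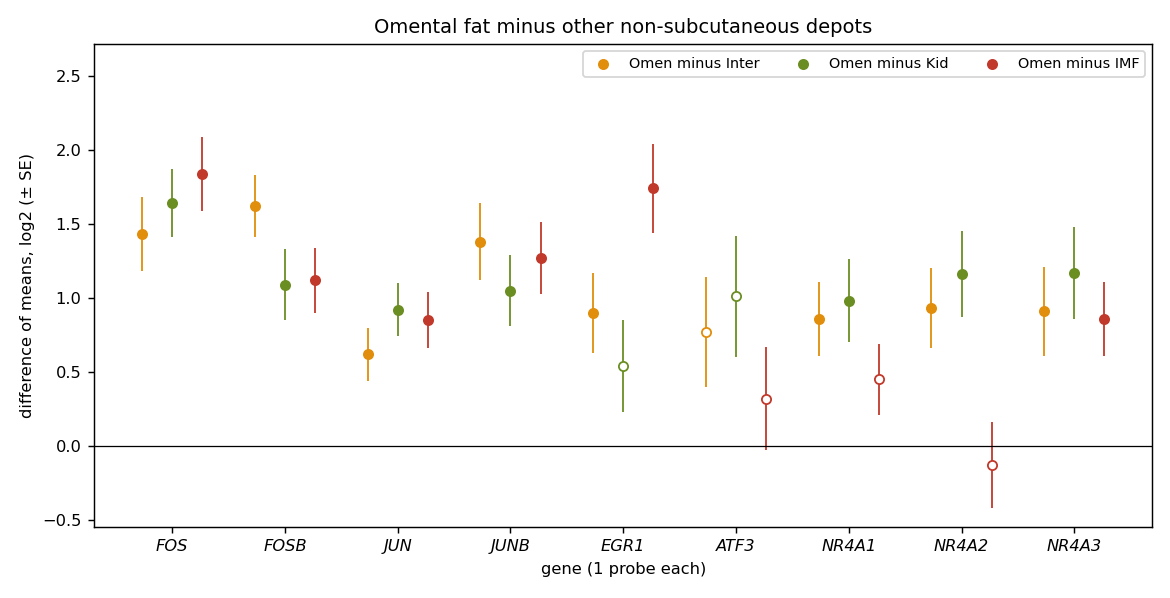
Difference of the Omen mean from Inter, Kid and IMF for each gene (x axis), in log2 units with the standard error (y axis). Filled points passed an adjusted p of 0.05. FOS, FOSB, JUN and JUNB are filled in all 3 comparisons, ATF3 in none.

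The Omen arrays fell apart by mesothelium, the lining of the abdominal cavity. Of 5 mesothelium markers, 2 had a probe, namely MSLN and UPK3B, and their summed level was 2.95 to 4.67 times the 75th percentile on 5 Omen arrays and 0.267 to 0.484 times on the other 7, against 0.429 to 0.727 times in SC. The 5 arrays had FOS levels of 5.75 to 6.28 and the other 7 had 4.01 to 5.89. ATF3 was 3.89 to 5.71 on the 5 arrays and 1.62 to 4.42 on the other 7, and NR4A1 was 4.87 to 6.05 and 3.25 to 5.75. The ranges overlapped for each of these genes. Without the arrays that stand apart by markers, 1 gene was called against Inter (FOSB, 1.40) and 1 against Kid (FOS, 1.19), where 1.72% and 0.532% of probes were higher. All 6 calls against IMF were kept without them (23.9% of probes were higher), and so were those of ATF3, NR4A1, NR4A2 and NR4A3 against SC (2.35, 2.42, 1.58 and 4.33, with 15.8% of probes higher), while FOS, JUNB and EGR1 against SC were lost, at 0.44, 0.89 and 0.64 with 7 Omen and 11 SC arrays. The differences whose calls were lost still lay between 0.32 and 1.06 against Inter and between 0.53 and 0.99 against Kid. The part of mesothelium in the Omen values was not tested beyond this.

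Slide and scan day also touch the Omen result, since 2 Omen arrays shared a slide and a scan day with Inter arrays and the other 10 were scanned with IMF. On slide 10, 2 Omen arrays differed from 2 Inter arrays by 0.84 for FOSB, 0.24 for FOS and -0.01 for JUNB, and by -0.55 for NR4A1. One of the 2, the Angus array at position 4, was the lowest of the 12 Omen arrays for 8 of the 9 genes, for example FOS (4.01), ATF3 (1.62) and NR4A1 (3.25), and read 96.5% of probes well above background, against a median of 83.8% in Omen. The remaining Omen array of slide 10 differed from the 2 Inter arrays by 1.5 for FOSB, 1.37 for FOS, 0.81 for JUNB, 0.25 for NR4A1 and -0.36 for NR4A2. Without the array at position 4, 8 genes were called higher against Inter (8.61% of probes), 8 against Kid (6.66%, now with ATF3) and 7 against IMF (30%, now with NR4A1). Against the 6 Kid arrays of that scan day, the 2 Omen arrays were higher by 1.23 for FOS and by 0.03 for NR4A1, and without the array at position 4 the other was higher by 2.37 and by 0.85. With both arrays, 5 of the 8 calls against Inter kept their sign on that scan day and 4 of 8 on slide 10, and 6 of the 7 against Kid did on that scan day.

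IMF was compared with the remaining depots. From Inter 4 genes differed (62.7% of probes did), namely NR4A2, higher by 1.06 ± 0.24, NR4A1 by 0.41 ± 0.12, FOSB by 0.50 ± 0.18, and EGR1, lower by 0.84 ± 0.22. The other EGR1 probes gave 0.14 and 0.17 there, neither past the threshold, and with scan day in the fit NR4A2 alone stayed called. Quantile normalization, centring on the mean and the authors' unscaled values each lost the FOSB and NR4A1 calls. They called FOS and JUN lower than in Inter instead. The NR4A1 call was also lost with the replicate number in the fit, and the FOSB call with slide as a random block. From Kid 3 genes differed (55.9%), with NR4A2 higher by 1.29 ± 0.26, NR4A1 by 0.53 ± 0.18 and EGR1 lower by 1.20 ± 0.27. The other EGR1 probes gave -0.44 and -0.17 against Kid, neither past the threshold. The second NR4A3 probe was higher in IMF, past the threshold, by 0.97 against Kid and by 0.79 against Inter. The NR4A1 call against Kid was lost with scan day in the fit, quantile normalization, centring on the mean and the authors' unscaled values. ATF3 was called higher than in Kid with breed in the fit and without the arrays that stand apart by markers. From LD on pasture 4 genes differed (75.3%), with JUNB higher by 1.18 ± 0.16, EGR1 by 1.20 ± 0.30 and NR4A3 by 0.73 ± 0.25, and FOSB lower by 0.60 ± 0.20. With slide as a random block or scan day in the fit the NR4A3 and FOSB calls against LD were lost, as they were with quantile normalization (0.46 and -0.07). The FOSB call was also lost with the replicate number in the fit, and the NR4A3 call with normexp background correction (0.04). Probes of FOSB and EGR1 disagreed against LD too, where 1 other FOSB probe gave 1.94 and 1 other EGR1 probe -0.37, both past the threshold. None of the 9 passed in Kid minus Inter by limma (15.4% of probes did), though 2 had an unadjusted p under 0.05 (10658 of all 34227 probes had) and the methods' t-test called 1, JUN.

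Of the 3 breeds, no gene differed in fat by limma (3.19% of probes did), and 2 of 9 had an unadjusted p under 0.05, as did 5662 of all 34227 probes.

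In LD by diet, none of the 9 genes and none of the 22 probes passed in supplement minus pasture by limma, where 7.19% of probes did, none of the 9 had an unadjusted p under 0.05, and the methods' t-test called none. With slide as a random block in limma (estimated correlation 0.452) the calls over all 34227 probes fell from 2461 to 0, with 2208 at an unadjusted p under 0.05, whereas the methods' t-test called 2400. With breed in the fit 3840 probes were called, and with scan day 1227. The share of 7.19% was thus not kept with slide in the fit. Most LD slides held a single breed and scan day, so slide cannot be fully told apart from these. FOS ranged from 2.53 to 5.86 with supplement (median 4.08, n = 12) and from 1.89 to 6.72 on pasture (median 3.57, n = 24), a difference of 0.29 ± 0.36. ATF3 ranged from 2.06 to 5.92 with supplement and from 1.5 to 7.28 on pasture, a difference of 0.65 ± 0.46. NR4A1 differed by 0.11 ± 0.19, NR4A2 by -0.14 ± 0.42 and NR4A3 by 0.11 ± 0.29. No slide held both diets, and on the 2 scan days that did, the FOS difference was 0.40 (8 against 8 arrays) and -0.43 (4 against 8). The labels do not give the kill of an LD sample.

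**Figure D4:**
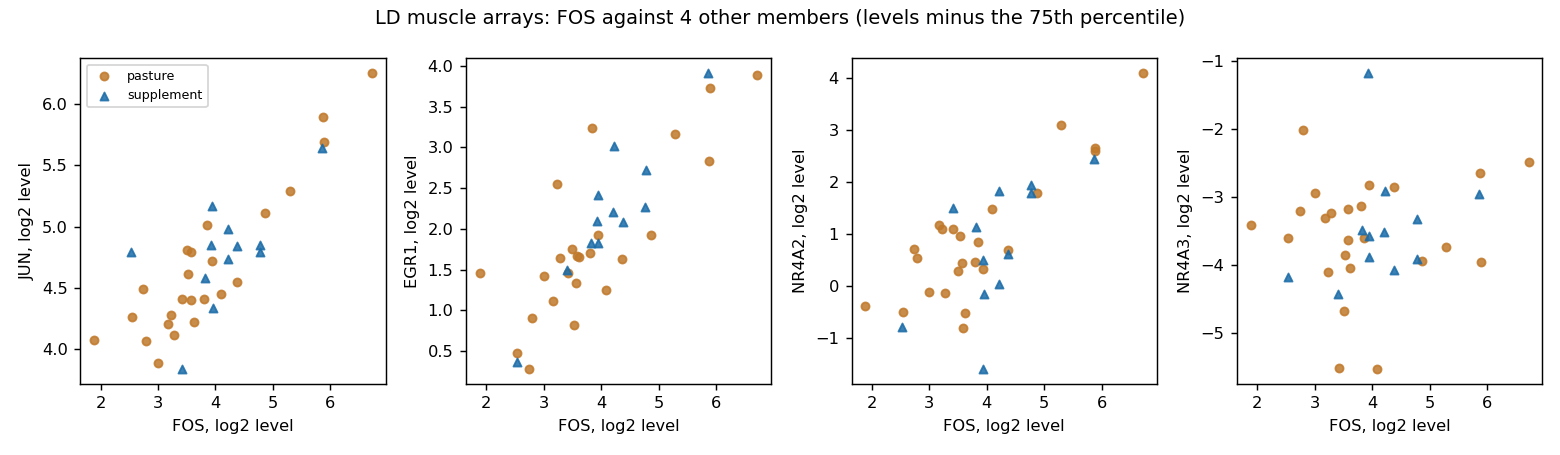
FOS level (x axes) against JUN, EGR1, NR4A2 and NR4A3 levels (y axes) on the 36 LD arrays, in log2 units minus the 75th percentile. Circles are pasture and triangles supplement arrays, which overlap. FOS reached 6.72 on the pasture array that also had the highest JUN, at 6.25.

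The LD arrays on pasture spread widely among themselves. On slides 14, 23 and 24, 4 of the 24 arrays each held one of the 4 highest levels for 7 or 8 of the 9 genes. The Hereford array at position 4 of slide 24 had the highest FOS (6.72), ATF3 (7.28) and NR4A2 (4.09) of the group. These 4 arrays span 3 breeds and 3 scan days.

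Across the arrays of each group, each gene was set against FOS. Of 56 relations, 55 had a positive Pearson r, 28 passed after adjustment over the 56 by a two-sided permutation test with 100000 resamples, and 23 passed by Spearman's rho. The 28 were among the 49 relations of genes other than NR4A3, with 6 of 8 genes past the threshold in Omen and in LD on pasture and 2 of 8 in Inter and in LD with supplement. The median r of FOS with all probes lay between -0.06 and 0.15 in the groups. EGR1 followed FOS in SC with r = 0.93 and rho = 0.80 (permutation adjusted p 0.00014 and 0.0128), where the unadjusted 1e-05 for r is the smallest that the permutations can give. JUN followed FOS in LD on pasture with r = 0.91 and rho = 0.81 (permutation adjusted p 0.00014 and 0.00056). JUNB followed it in Omen with r = 0.93 and rho = 0.83 (permutation adjusted p 0.000249 and 0.00884). Without the 2 arrays farthest from the FOS median these values of r were 0.90, 0.85 and 0.86, and after removal of slide means 0.92, 0.94 and 0.92.

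NR4A3 did not follow FOS past the threshold in any of the 7 groups, with r from -0.17 in Inter to 0.54 in Kid. The smallest permutation adjusted p for it, in Kid, was 0.103 by r and 0.0624 by rho (rho = 0.62, unadjusted permutation p 0.0334), and by r none had an unadjusted p under 0.05. ATF3 followed FOS in Omen (r = 0.88), SC (0.85), LD on pasture (0.84), Inter (0.72) and IMF (0.71), and had r = 0.13 in Kid and 0.18 in LD with supplement. By rho the relation in IMF did not pass (rho = 0.63, permutation adjusted p 0.0616). Whether r differs between groups was not tested.

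**Figure D5:**
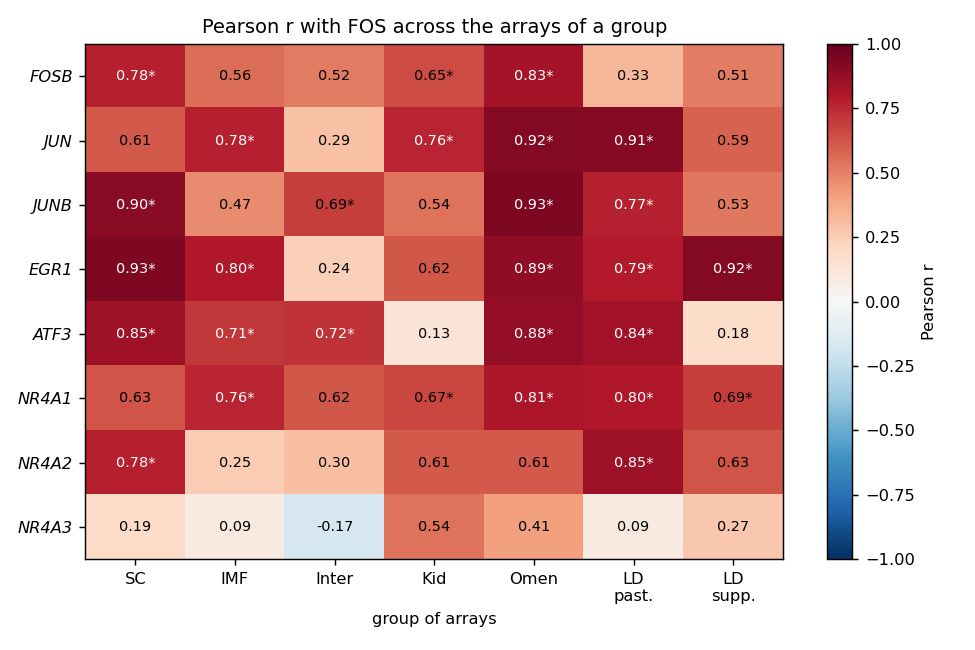
Pearson r of each gene (rows) with FOS across the arrays of a group (columns). An asterisk marks a permutation adjusted p under 0.05 over 56 relations. NR4A3, the bottom row, has no asterisk, and r reaches 0.93 in SC and Omen.

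Outside the members, the genes whose pattern within groups was most like the mean of the 9 were ranked over the 96 arrays, each value taken minus the mean of its group. ZFP36, which encodes an mRNA decay factor, had r = 0.882, followed by IER2 (0.728), IER5 (0.698), JUND (0.690), ERRFI1 (0.659), DUSP1 (0.646), PPP1R15A (0.642) and CSRNP1 (0.640). ADAMTS1 (0.626), CCN1 (0.620), CCNL1 (0.617), PTGS2 (0.616), GJA1 (0.606), RND1 (0.597) and ZBTB21 (0.595) completed the first 15 of 10644 genes, whose median r was 0.002. Of these 15, 7 belong to a list of other immediate early and feedback genes. The points share arrays and their scaling, and the r are a description.

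Other genes of the same response were described by list. Among 26 measured immediate early and feedback genes, 8 were higher and 10 lower in IMF than in SC (all named genes 30.0% and 39.1%), with a median of -0.14 (all named genes -0.07). In Omen minus SC 17 were higher and none lower (all named genes 19% and 32%), with a median of 0.80 (all named genes -0.09). CREM, which encodes a cyclic AMP response factor, was higher by 3.05 in IMF and 2.26 in Omen. BTG2, an antiproliferative gene, was higher by 2.64 in IMF, and GADD45B, a stress sensor, by 2.04 in Omen. With supplement (all named genes 3.91% and 4.36%) 2 were higher (among them IER3, an apoptosis regulator, at 0.83) and 2 lower (TNFAIP3, -0.52, and KLF10, -0.45), and all these calls were lost with slide as a random block.

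Of 10 other AP-1 and EGR family genes measured, 6 were higher and none lower in IMF than in SC, and 7 were higher and 1 lower in Omen than in SC, led in both by MAFF (2.26 and 2.26) and FOSL2 (1.99 and 1.94). Of 14 heat shock and unfolded protein genes 11 were higher and none lower in IMF (chaperones HSPB8 2.81, HSPA1A 2.46, DNAJB1 1.96), and 8 were higher and 1 lower in Omen (TRIB3 1.51, HSPH1 0.92, HSPA5 0.90). In LD on pasture 10 of the 14 were higher and 3 lower than in SC (all named genes 43.1% and 42.7%). In IMF 4 were higher and 7 lower than in LD (all named genes 36.9% and 42.7%). The part of muscle RNA in these counts was not tested. Of 11 glucocorticoid responsive genes 4 were higher and 2 lower in IMF (TSC22D3 1.04, KLF15 0.94, ANGPTL4 -1.99), and 7 higher and 1 lower in Omen (ERRFI1 1.73, SGK1 1.10, TSC22D3 1.0). Of 16 upstream kinases and factors 5 were higher and 4 lower in IMF (RPS6KA3 1.89, SRF 1.81, ELK1 1.22) and 3 higher and 3 lower in Omen. That is 31.2% and 25.0% in IMF and 18.8% and 18.8% in Omen, near or below the shares of all named genes. Of 9 hypoxia responsive genes 4 were higher and 2 lower in IMF (LDHA 3.45, EGLN3 1.84, ADM -1.30) and 2 higher and 1 lower in Omen (VEGFA 0.87).

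Markers of other cell types moved with these comparisons. In IMF minus SC, 7 of 8 adipocyte and 4 of 4 macrophage markers were lower and 4 of 4 smooth muscle markers were higher, and 2 of 4 endothelium, 1 of 2 neutrophil and 1 of 2 mesothelium markers were lower. In Omen minus SC, 7 of 13 myofibre markers were lower, 2 adipocyte markers were higher and 3 lower, 2 of 4 endothelium markers and MSLN were higher, and 1 of 4 macrophage markers was lower. None of 2 red blood cell markers passed in either, and no neutrophil or smooth muscle marker did in Omen minus SC by limma. Myofibre markers were higher than in SC for 5 of 13 in Inter and in Kid and for 13 of 13 in LD, where 8 of 8 adipocyte, 4 of 4 endothelium and 4 of 4 macrophage markers were lower. In Omen minus IMF, 8 of 8 adipocyte, 4 of 4 endothelium and 4 of 4 macrophage markers were higher (all named genes 31.6%). There 13 of 13 myofibre markers were lower (all named genes 29.7%). Of the myofibre markers, 6 of 13 were lower in Omen than in Inter and 8 of 13 than in Kid (all named genes 5.97% and 9.95%). In IMF minus Inter and IMF minus Kid, 13 of 13 myofibre and 4 of 4 smooth muscle markers were higher. There 7 of 8 adipocyte and 4 of 4 macrophage markers were lower. All named genes were higher and lower at 33.7% and 33.3% against Inter and 27.6% and 33.6% against Kid. In IMF minus LD on pasture, 8 of 8 adipocyte and 4 of 4 smooth muscle markers were higher (all named genes 36.9%). Against LD 13 of 13 myofibre markers were lower (42.7%). In supplement minus pasture, 3 of 8 adipocyte markers were lower and 3 of 4 endothelium markers higher (all named genes 4.36% and 3.91%), calls that were likewise lost with slide as a random block. In tissue samples, fewer cells of a type and less RNA per cell cannot be told apart, and the part of these shifts in the values of the 9 genes was not tested.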

How the data were processed

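The authors deposited scanner output of Agilent Feature Extraction for 96 arrays, with a processed signal per spot (intensity, background subtracted, no scaling between arrays), and 1 table with the log2 of the background-subtracted median signal. Agilent labelling started from 50 ng of total RNA. The processed signal was used, without outlier spots (0.223%). The log2 of each spot was taken, the spots of a probe were averaged and the 75th percentile of the array was subtracted. The 34227 probes of the log2 table were tested, with no filter on dim probes, and 62.7% of them were named. No spot was saturated, no pair of arrays was identical, and the number of arrays limits the precision.

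Groups were compared with limma 3.58.1 in R 4.3.3 on the arrays of both groups, with Benjamini-Hochberg adjustment over all probes and a threshold of 0.05. Python 3.11.15 served for values and figures. Methods were tested on simulated data. Named genes are the 9 members in every comparison, up to 3 genes per list by size of difference among those past the threshold, and the 15 most alike in pattern. The members and lists were chosen with earlier results of these data known. Alternatives were other scalings, background correction, the authors' log2 values, probe choice, breed, replicate number, slide and scan day, and the methods' t-test. Leaving out arrays that stand apart by markers, or 1 Omen array of slide 10, was chosen after seeing the data. No sequence or genome position was used here.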

Additional observations from a re-analysis of the deposited data

Results flagged for a closer look

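In each breed of a group the lowest and highest array was compared with its neighbours (4 or 8 arrays). Of 189 sets of values, 11 (5.82%) had an array set apart by more than Dixon's limit, and chance alone gives about 1 in 20. In SC, an Angus array was highest for FOSB (5.38, the others 4.63 to 4.72) and another for NR4A1 (3.31, the others 1.65 to 1.93). In Kid, a Hereford array was lowest for FOS (3.39, the others 4.25) and an Angus array lowest for NR4A2 (-0.15, the others 0.62 to 0.73). In IMF, a Wagyu x Angus array was lowest for JUN (3.91, the others 4.45 to 4.56) and for NR4A2 (0.55, the others 1.97 to 2.14). In LD on pasture, an Angus array was highest for JUN (5.89, the others 4.07 to 4.61) and for NR4A2 (2.65, the others -0.39 to 0.96), and a Wagyu x Angus array for EGR1 (3.73, the others 0.48 to 1.93). In LD with supplement, a Hereford array was highest for FOS (5.86, the others 3.93 to 4.22) and an Angus array lowest for JUNB (1.09, the others 2.04 to 2.20).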

How the results depend on the processing

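Values in this paragraph are numbers of the 9 genes called, against the main number, unless another quantity is named. With the authors' unscaled log2 values, IMF minus SC had 4 (8) and Omen minus Inter 5 (8). Those values move the median of all probes by 0.629 to 0.977 above SC in the 4 fat comparisons, split the IMF minus SC calls of all probes into 21723 higher and 1889 lower (10651 and 11307), and without allowing for that shift JUN in Inter (0.46), FOS in Kid (0.07) and JUN in Kid (0.06) changed sign from lower to higher than SC, as did FOSB in IMF minus LD on pasture (0.06). The mean of all probes turned that FOSB difference too (0.17) and gave 5 in IMF minus Kid (3). Scan day in a fit over 96 arrays gave 4 in IMF minus SC (8), 2 in IMF minus LD on pasture (4), 3 in Omen minus Inter (8) and 1 in IMF minus Inter (4). Over all probes the calls of these comparisons went from 21958 to 17261, 25762 to 25009, 4644 to 7177 and 21476 to 18134, and there the NR4A2 calls against SC in Inter and Kid were lost. Slide as a random block gave 2 in IMF minus LD on pasture (4) and 3 in Omen minus Inter (8), where all probes went to 22193 and 2162 calls. In Kid minus Inter (0), quantile normalization and the methods' t-test gave 1. Without arrays that stand apart by markers Omen minus SC had 4 (7), Omen minus Inter 1 (8) and Omen minus Kid 1 (7), with fewer arrays tested. The cause of the other changes was not tested. ATF3, NR4A1 and NR4A3 were higher than SC, past the threshold, in IMF, Inter, Kid, Omen and LD under every alternative run.

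Replicate numbers equal an array's position on its slide and can repeat within a breed of a depot, so they do not name animals. Same-numbered arrays of a breed had a median correlation of 0.038 against 0.018 for other numbers, which cannot tell whether animals were shared. With the number as a replicate block, Omen minus Inter had 3 calls (8), while all probes went from 4644 to 1180 calls, and Kid minus Inter had 1 (0), with 5278 and 4394 over all probes, and no other number of calls moved by over 1.5 times. Of the FOS relations 51 to 55 of 56 stayed positive under their alternatives. Dim probes limit NR4A3 in SC.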
